A study of Mus musculus with 4 samples.

Results

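The surface proteins by which blood stem cells are gated in a cell sorter were followed at the RNA level in haematopoietic stem cells sorted from mouse bone marrow, the long-term fraction (LT-HSC) and the short-term fraction (ST-HSC). The genes were Kit, Cd34, Flt3, Slamf1, Cd48, Cd27, Procr, Esam and Tek, and every probe set annotated to 1 of these symbols alone was taken, which gave 12 of the 45037 probe sets on the array, for 9 of 18193 named genes. Kit and Slamf1 were measured by 2 and 3 probe sets and the other 7 genes by 1 each. All 12 passed the filter on dim probe sets.

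The LT-HSC group held 2 arrays of cells sorted as Lin- cKit+ Sca1+ CD34- CD135-, and the ST-HSC group 2 arrays of Lin- cKit+ Sca1+ CD34+ CD135- cells. All cells came from control mice on a C57BL/6 background that lack the MxCre transgene, and each mouse had been given 7 injections of poly(I:C), a double-stranded RNA mimic that sets off an interferon response. Both LT-HSC arrays and ST-HSC replicate 2 stood for mice aged 7.5 weeks that were killed 4 weeks after the final dose. The mice of ST-HSC replicate 3 were aged 8.5 weeks and killed 3 weeks after it. For the ST-HSC samples the tissue entry carries the name of the other fraction, and groups were taken from the titles. By these ages the ST-HSC arrays were of different mice, whereas the labels do not say whether the LT-HSC arrays were of separate animals or pools, so p-values measure the spread between these arrays, which may be technical.

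Stem and progenitor cells of the marrow share the stem cell factor receptor KIT and are told apart by a few further antigens. In the mouse, long-term repopulating cells lack CD34 and CD135 (FLT3) on their surface, and CD34 appears with the short-term stage. Outside this sort, CD150 (SLAMF1), EPCR (PROCR), ESAM and TIE2 (TEK) are known to mark the long-term fraction, whereas CD48 marks progenitors and CD27 is higher on short-term cells. Only KIT, CD34 and CD135 of the 9 proteins were part of the gates used here, and protein on the surface need not follow RNA.

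Of the 12 probe sets 3 were lower in LT-HSC than in ST-HSC, 0 were higher and 9 did not pass the test. The 3 were those of Cd34, Cd27 and the brighter one of Kit, which lay at the edge of the threshold. The counts and the median of this paragraph include Cd34. Its direction was fixed by the CD34 gate, so it is not a result. Over all 27022 probe sets tested, 5.48% were called lower in LT-HSC and 6.72% higher. Of the 6 probe sets of the 4 genes known as marks of the long-term fraction (Slamf1, Procr, Esam and Tek), 0 were called higher in LT-HSC. With 6.72% of all tested probe sets called higher, a count of 0 of 6 says little of these genes, and 3 of the 6 are of Slamf1. Both LT-HSC arrays read below both ST-HSC arrays on 6 of the 12 probe sets and above them on 0, against 34.2% and 26.9% of all probe sets tested. The median log2 difference of the 12 was -0.74, against -0.08 over all tested probe sets. Differences are LT-HSC minus ST-HSC on the quantile-normalized log2(intensity + 16) scale with limma's moderated standard error (SE), and adjusted p-values are from limma with Benjamini-Hochberg adjustment over all 27022 probe sets at a threshold of 0.05. The pseudocount understates the fold of dim probe sets. In bulk RNA of sorted cells, fewer cells carrying a transcript and less of it per cell cannot be told apart.

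**Figure D1:**
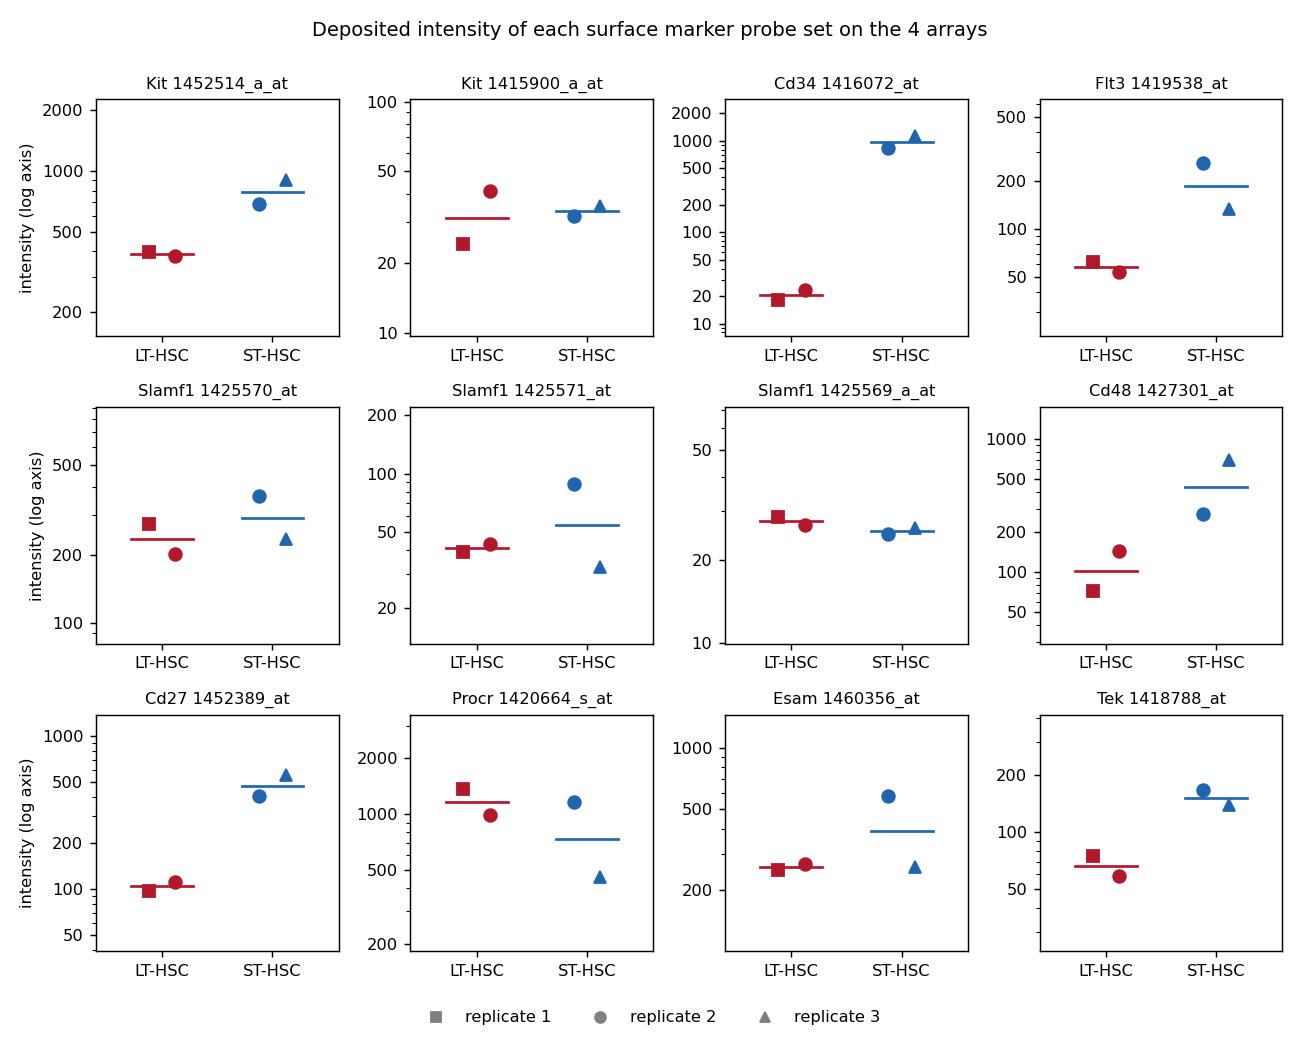
Deposited intensity (log axis, linear units of the authors) of each of the 12 surface marker probe sets on the 2 LT-HSC arrays (red) and the 2 ST-HSC arrays (blue), with symbols for the replicate number and bars at the geometric mean of each group. Cd34, Cd27, Cd48, Flt3, Tek and the brighter Kit probe set separate the groups with ST-HSC higher, and the dimmest Slamf1 set separates them narrowly the other way.

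The 3 antigens of the gate were read first. Only CD34 differed between the gates, so Cd34 alone can serve as a check of the labels. Cd34, which encodes a sialomucin of progenitor and endothelial surfaces, read 18.3 and 23.5 on LT-HSC replicates 1 and 2, against 841 and 1142 on ST-HSC replicates 2 and 3. The groups lay far apart and in the direction of the gate. Its log2 means were 5.25 ± 0.09 in LT-HSC and 10.03 ± 0.26 in ST-HSC (SD, n = 2 arrays each), a difference of -4.78 (SE 0.31, adjusted p = 0.000473), or 27.4-fold lower in LT-HSC. The call held with each array left out, with differences between -5.02 and -4.62. Since the LT-HSC values are close to the pseudocount of 16, the difference depended on it, at -5.49 with a pseudocount of 1 and -3.67 with 64. CD34 was one of the antigens by which the fractions were sorted, so the difference serves as a check of the labels and not as a result.

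Kit encodes the receptor tyrosine kinase for stem cell factor, for which both gates were positive. Its brighter probe set read 397 and 382 on the LT-HSC arrays, against 684 and 907 on the ST-HSC arrays, so that both LT-HSC arrays were below both ST-HSC arrays. The log2 means were 8.68 ± 0.05 in LT-HSC and 9.70 ± 0.24 in ST-HSC (SD, n = 2 each). The difference of -1.02 (SE 0.26, limma adjusted p = 0.0498), or 2.03-fold lower in LT-HSC, lay at the edge of the threshold. Leaving out LT-HSC replicate 1 or 2 kept its size (-1.03 and -0.97) but ended the call (limma adjusted p = 0.381 and 0.321). The dimmer probe set read 24.2 and 41.0 on the LT-HSC arrays, against 31.9 and 35.5 on the ST-HSC arrays, with overlapping groups and a difference of 0.05 (95% interval -0.67 to 0.76). The 2 probe sets of Kit thus did not show the same difference, and with both averaged the gene lay at -0.49 (adjusted p = 0.209).

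Flt3 encodes CD135, the receptor of FLT3 ligand on lymphoid-primed progenitors, against which both gates selected. It read 62.3 and 53.4 on the LT-HSC arrays, against 258 and 134 on the ST-HSC arrays. Transcript was measured above the filter in both fractions, lower on each LT-HSC array than on each ST-HSC array, and ST-HSC replicate 2 stood highest. The difference was -1.37 (SE 0.38, 95% interval -2.28 to -0.46) and did not pass (adjusted p = 0.0631). Without ST-HSC replicate 3, which leaves only arrays of mice of the same age and the same time after injection, it was -1.75. Without ST-HSC replicate 2 it was -0.99. With 1 ST-HSC array left, the spread is estimated from the LT-HSC pair alone, so no call is read from these fits, here or for the genes below.

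Cd27 and Cd48 are the antigens of the 9 that outside this sort rise toward progenitors. Cd27, a receptor of the tumour necrosis factor receptor family that binds CD70, read 98.1 and 112 on the LT-HSC arrays, against 405 and 556 on the ST-HSC arrays. The LT-HSC pair was nearly level and well below the ST-HSC pair. Log2 means were 6.98 ± 0.05 in LT-HSC and 8.92 ± 0.31 in ST-HSC (SD, n = 2 each), a difference of -1.93 (SE 0.31, limma adjusted p = 0.0124), or 3.81-fold lower in LT-HSC. The size held without LT-HSC replicate 1 or 2 (-1.90 and -1.91), although the call did not (limma adjusted p = 0.174 and 0.143), where the ST-HSC pair is the only pair left to estimate the spread.

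Cd48, a lipid-anchored member of the SLAM family that binds CD2 and CD244, read 72.3 and 145 on the LT-HSC arrays, against 275 and 700 on the ST-HSC arrays. The groups did not overlap, but both pairs were spread, and ST-HSC replicate 3 lay 1.37 above ST-HSC replicate 2 on the log2 scale. The difference of -1.80 (SE 0.49, 95% interval -2.97 to -0.62) did not pass (limma adjusted p = 0.0602). It was -1.11 when ST-HSC replicate 3 was dropped. Dropping ST-HSC replicate 2 gave -2.56, so its direction did not rest on either ST-HSC array while its size did.

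**Figure D2:**
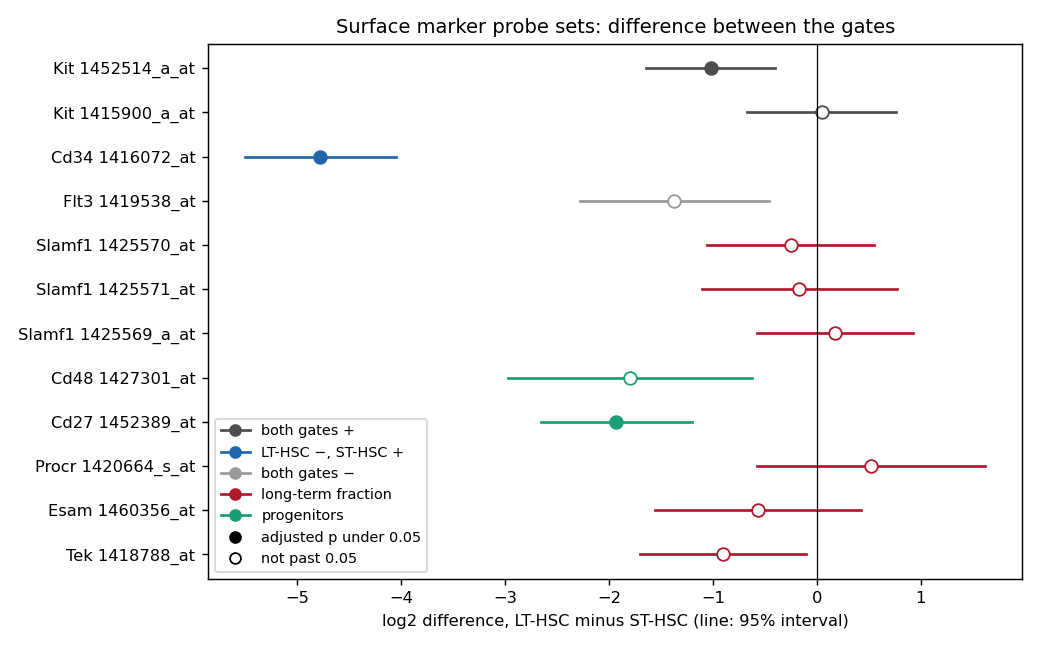
Log2 difference, LT-HSC minus ST-HSC, of the 12 probe sets with its 95% interval (limma, n = 2 arrays each), coloured by how the antigen is used in gating. Filled points passed the adjusted p threshold of 0.05, and the probe sets of the long-term fraction (red) run from -0.91 for Tek to 0.52 for Procr with no call.

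Slamf1 encodes CD150, the founding member of the SLAM family and the antigen most used to purify mouse stem cells. Its brightest probe set read 274 and 201 on the LT-HSC arrays, against 363 and 235 on the ST-HSC arrays. The ranges overlapped, and the difference was -0.25 (SE 0.34, 95% interval -1.06 to 0.55, limma adjusted p = 0.651). The dimmer sets also had overlapping normalized values, with 39.3 and 43.3 on the LT-HSC arrays against 88.6 and 32.8 in ST-HSC for the middle probe set, a difference of -0.17, and 28.7 and 26.7 on the LT-HSC arrays against 24.9 and 26.2 in ST-HSC for the dimmest, a difference of 0.18. As deposited, the dimmest set read slightly higher on both LT-HSC arrays, and the normalization made the groups overlap. The intervals of the 3 probe sets, together from -1.11 to 0.93, leave room for a change of up to about 1 on the log2 scale in either direction.

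Procr encodes the endothelial protein C receptor, EPCR. It read 1376 and 995 on the LT-HSC arrays, against 1171 and 458 on the ST-HSC arrays. As deposited, ST-HSC replicate 2 lay between the LT-HSC arrays and ST-HSC replicate 3 below them. On the normalized log2 scale ST-HSC replicate 2 read 10.34, just above LT-HSC replicate 1 at 10.32. There ST-HSC replicate 3 lay 1.46 under its partner. The difference was 0.52 (SE 0.46, 95% interval -0.58 to 1.62) and did not pass (limma adjusted p = 0.486). One ST-HSC array set its sign: without ST-HSC replicate 2 it was 1.29, and without ST-HSC replicate 3 it was -0.21.

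Esam encodes an immunoglobulin-family adhesion protein of endothelial junctions, platelets and stem cells. It read 251 and 267 on the LT-HSC arrays, against 580 and 260 on the ST-HSC arrays. The LT-HSC pair and ST-HSC replicate 3 were level, and ST-HSC replicate 2 stood alone above them. The difference was -0.57 (SE 0.42, limma adjusted p = 0.398) over all 4 arrays. It was -1.15 when ST-HSC replicate 3 was dropped. Dropping ST-HSC replicate 2 gave 0.02.

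Tek encodes TIE2, the receptor of the angiopoietins. It read 75 and 59.0 on the LT-HSC arrays, against 167 and 139 on the ST-HSC arrays. Here the ST-HSC pair was level and both LT-HSC arrays lay below it, the reverse of the order known for this antigen. The difference of -0.91 (SE 0.34, 95% interval -1.71 to -0.11) did not pass (limma adjusted p = 0.125), and no setting tried turned its sign, with values from -1.18 to -0.63.

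The spread within the ST-HSC pair was largest for Procr, Cd48 and Esam, for which the 2 ST-HSC arrays differed by more than 1 on the log2 scale, as did 12.5% of all tested probe sets. Procr and Esam were lower on ST-HSC replicate 3 than on ST-HSC replicate 2, and Cd48 was higher. In the LT-HSC pair 0 of the 12 probe sets differed by more than 1, against 5.18% of all tested probe sets. ST-HSC replicate 3 was also the array with the highest summed intensity of 10 granulocyte markers, 47948, against 3837 and 528 on LT-HSC replicates 1 and 2 and 3452 on ST-HSC replicate 2, and 0 of these markers read 0 on any array. The part of these markers, and of the differing age of the mice, in the values of Procr, Cd48 and Esam was not tested.

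**Figure D3:**
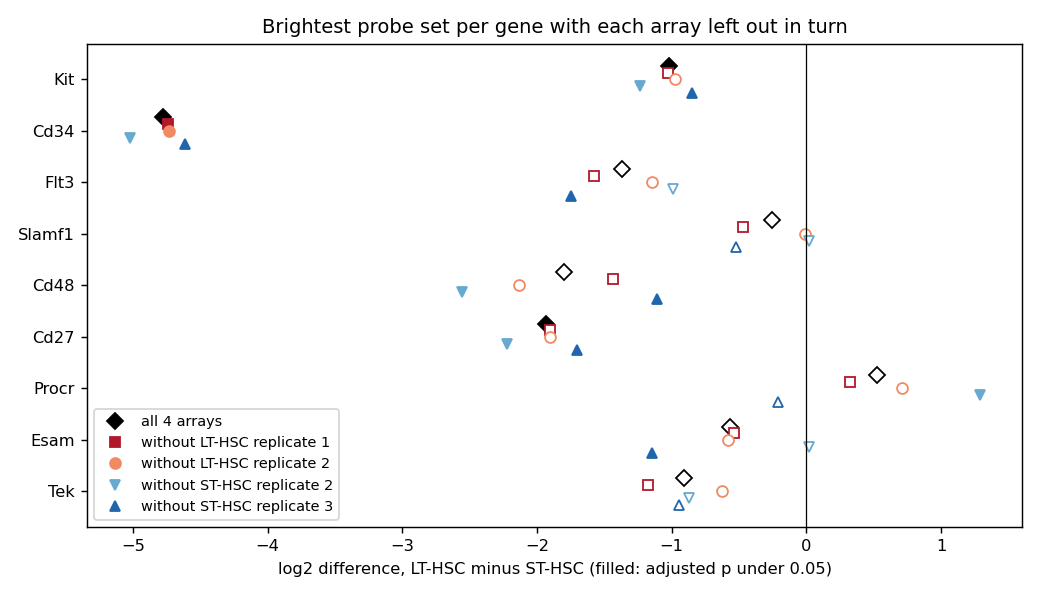
Log2 difference, LT-HSC minus ST-HSC, of the brightest probe set of each gene over all 4 arrays (diamonds) and with each array left out in turn. Filled symbols passed the adjusted p threshold of 0.05, Cd34 stays between -5.02 and -4.62, and Procr and Esam move across or onto 0 with the ST-HSC array that is left out.

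Cd34, Cd27 and Kit, the genes called lower in LT-HSC, are shown with the 250 bases before their listed starts, from the RefSeq promoter table of GRCm38.p6 (8 of the 9 genes matched, Kit with 2 starts, of which the first listed is shown). Capitals mark GATA or its reverse complement TATC, the core bound by GATA factors of blood cells.
Cd34 (GRCm38.p6, chr1:194938571-194938820, plus strand): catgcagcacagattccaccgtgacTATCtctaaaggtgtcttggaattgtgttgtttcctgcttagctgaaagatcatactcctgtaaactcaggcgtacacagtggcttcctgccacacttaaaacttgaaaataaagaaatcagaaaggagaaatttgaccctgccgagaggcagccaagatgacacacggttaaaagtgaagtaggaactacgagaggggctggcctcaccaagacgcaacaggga
Cd27 (GRCm38.p6, chr6:125237028-125237277, minus strand): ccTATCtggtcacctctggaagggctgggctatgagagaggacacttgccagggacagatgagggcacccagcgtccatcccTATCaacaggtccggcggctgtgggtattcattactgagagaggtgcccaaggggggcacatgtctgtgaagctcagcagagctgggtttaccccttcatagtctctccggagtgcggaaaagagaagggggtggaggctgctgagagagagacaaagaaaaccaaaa
Kit (GRCm38.p6, chr5:75574737-75574986, plus strand): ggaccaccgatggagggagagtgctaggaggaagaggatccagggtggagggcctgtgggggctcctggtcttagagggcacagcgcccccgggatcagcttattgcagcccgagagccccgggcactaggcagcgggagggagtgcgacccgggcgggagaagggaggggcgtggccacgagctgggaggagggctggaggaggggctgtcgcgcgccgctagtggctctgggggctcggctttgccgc
On either strand the window of Cd34 held 1 GATA match, that of Cd27 held 2 and that of Kit 0, while 53.6% of 32851 promoter windows of the same length held at least 1. The ETS core GGAA, also on either strand, occurred 5 times for Cd34, 2 times for Cd27 and 1 time for Kit, and in 93.4% of all windows. The E-box CANNTG occurred 3 times for Cd27 and 0 times for the other two, against 66.2% of all windows with a match. The RUNX core TGTGGT had 0 matches in these 3 windows, 1 in that of Cd48, and was present in 14% of all windows. A match here is a string of letters, not a site shown to be bound.

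The genes whose 4 centred array values lay nearest to those of Cd34, by Euclidean distance among 12831 other genes, were Mpo (distance 0.83), Dnajc6 (1.01), Cep55 (1.15), Serpinb1a (1.47) and Depdc1b (1.5). Mpo, which encodes myeloperoxidase of granules, read 133 and 112 on the LT-HSC arrays, against 2876 and 7296 on the ST-HSC arrays (log2 difference -5.16, SE 0.44, limma adjusted p = 0.0014). With 4 arrays in 2 groups, likeness to Cd34 reflects mainly the size of the difference between the groups.

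Calls among the other SLAM family genes and their partners were all toward higher values in LT-HSC. Of 7 tested genes 3 were called higher in LT-HSC and 0 lower, while 4 did not pass, with a median of 0.88, against -0.08 over 12832 genes, of which 7.92% were called higher and 6.41% lower. Slamf7, a receptor known on plasma cells and natural killer cells, read 715 and 719 on the LT-HSC arrays, against 10.3 and 11.0 on the ST-HSC arrays (4.81, SE 0.29, limma adjusted p = 0.000407). Slamf9 was higher by 4.27 and Cd2, a binding partner of CD48, by 2. Cd244a, the receptor 2B4 that binds CD48, read 49.8 and 48.0 on the LT-HSC arrays, against 110 and 53.5 on the ST-HSC arrays, and did not pass (-0.40, limma adjusted p = 0.492). The call of Cd2 was lost without LT-HSC replicate 1 or 2, with a highest limma adjusted p of 0.0868, and those of Slamf7 and Slamf9 held in all 11 settings.

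Beside these stood markers of antibody-secreting cells on the LT-HSC arrays. All 9 plasma cell markers tested were higher in LT-HSC, with a summed intensity of 65083 and 66190 on the LT-HSC arrays, against 1727 and 3214 on the ST-HSC arrays, and 0 of them read 0 on any array. The list was chosen with earlier results of these data known. Among the 8 markers of B cells tested, 4 were called higher in LT-HSC and 0 lower, while 4 did not pass, with sums of 4760 and 5344 on the LT-HSC arrays, against 367 and 612 on the ST-HSC arrays. The part of these cells in the values of the 9 gating genes and of the SLAM family was not tested. The antigens behind the Lin- gate are not given here, so a list of lineage antigens was drawn up. Of its 13 genes on the array 7 were bright enough to be tested. Of these, 3 were higher in LT-HSC, namely Ms4a1 (CD20, 4.86), Il7r (the interleukin-7 receptor, 4.59) and Cd3g (1.90), and 0 were lower (median 0.83). Whether the gate selected against these 3 is not known. For comparison with the counts of this paragraph, 7.92% of all 12832 genes were called higher in LT-HSC and 6.41% lower.

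Of 18 tested ligands and partners of the gated receptors 2 were called higher in LT-HSC and 2 lower, while 14 did not pass (median -0.39). The shares over all 12832 genes were 7.92% higher and 6.41% lower. Angpt1, which encodes a ligand of TIE2, read 1033 and 594 on the LT-HSC arrays, against 1810 and 1654 on the ST-HSC arrays (-1.30, SE 0.29, limma adjusted p = 0.0338), in the same direction as Tek, and its call was lost under 4 of 11 settings. Siva1, which encodes an apoptosis protein that binds the tail of CD27, was lower in LT-HSC (-1.95, SE 0.30, limma adjusted p = 0.0112), as was Cd27. Thbd, thrombomodulin, which works with EPCR in activating protein C, was higher by 1.79 (SE 0.34, limma adjusted p = 0.0215), and Ptpn11, the phosphatase SHP2 that acts downstream of KIT, by 1.16 (SE 0.28, limma adjusted p = 0.042). All 4 calls ended when LT-HSC replicate 1 or 2 was left out, the highest limma adjusted p being 0.354, for Ptpn11. Without ST-HSC replicate 2 the counts were 5 higher and 3 lower, and without ST-HSC replicate 3 they were 3 higher and 5 lower, when 8774 and 6007 of all tested probe sets passed, against 3296 over all 4 arrays. Tie1, the sister receptor of TIE2, read 54.9 and 18.7 on the LT-HSC arrays, against 97.4 and 52.2 on the ST-HSC arrays, and did not pass.

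Of further antigens known from stem cell sorting, 23 were tested, of which 4 were higher, 0 were lower and 19 did not pass (median 0.58): Cd81 (a tetraspanin, 1.02), Il6st (the shared receptor chain gp130, 2.02), Alcam (an adhesion protein, 1.54) and Vwf (von Willebrand factor, a secreted protein that marks platelet-biased stem cells, 2.63). Vwf read 1177 and 621 on the LT-HSC arrays, against 230 and 63.3 on the ST-HSC arrays. The 4 calls ended when LT-HSC replicate 1 or 2 was left out, with a highest limma adjusted p of 0.284, for Cd81. Beside the counts of this paragraph, 7.92% of all 12832 genes were called higher in LT-HSC and 6.41% lower. The median of the 23 antigens was 0.39 when ST-HSC replicate 2 was dropped. It was 0.13 when ST-HSC replicate 3 was dropped. No call is read from these 2 fits, since each leaves 1 ST-HSC array. Among the genes that did not pass, both LT-HSC arrays lay below both ST-HSC arrays for Itga2b (-1.48), Cd9 (-1.42), Robo4 and Adgrg1 (-0.92 each), Eng (-0.40) and Jam2 (-0.25). They lay above them for Neo1 (1.58), Itgb3 (1.42), Thy1 (0.96), Cd82 (0.76) and Clec1a (0.58). Over all tested probe sets 34.2% lay below in this way and 26.9% above, so such separation alone is not a result about these genes. Of 14 further progenitor antigens Csf3r, the G-CSF receptor, was lower in LT-HSC (-2.52, SE 0.31, limma adjusted p = 0.00538), Il7r, Ccr9 (a chemokine receptor of lymphoid cells, 2.73) and Csf2rb (a receptor chain of interleukin-3 and GM-CSF, 1.41) were higher, and 10 did not pass (median -0.13). Those counts were 3 higher and 1 lower. The median of the 14 was -0.44 when ST-HSC replicate 2 was dropped. Dropping ST-HSC replicate 3 gave a median of 0.19 over the 13 genes then tested. Il7r and Ccr9 kept their calls in all 11 settings, and Csf3r and Csf2rb lost theirs when either LT-HSC array was left out (highest limma adjusted p = 0.222).

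Transcription factors and other intracellular stem cell genes were read beside the surface antigens. Among all 12832 genes 6.41% were called lower and 7.92% higher. Of the 19 of this list tested 5 were lower in LT-HSC, 0 were higher and 14 did not pass (median -0.44). Hoxa9, Tal1, Lmo2, Lyl1 and Gfi1b were lower, from -0.91 for Lyl1 to -1.75 for Hoxa9, and without LT-HSC replicate 1 or 2 the count was 0. With ST-HSC replicate 2 left out the median was -0.15, and with ST-HSC replicate 3 left out it was -0.97. Neither the count nor the absence of higher calls held in these fits. Their spread comes from the LT-HSC pair alone, and more of all tested probe sets passed in them as well. Hlf, a factor of long-term stem cells, read 1116 and 786 on the LT-HSC arrays, against 1495 and 896 on the ST-HSC arrays, and Mecom 705 and 499 on the LT-HSC arrays, against 1046 and 547 on the ST-HSC arrays, with overlapping groups. Fgd5, used as a reporter of mouse stem cells, read 135 and 115 on the LT-HSC arrays, against 178 and 132 on the ST-HSC arrays. These 3 genes did not pass the test between the fractions. Nor did Sult1a1 (1.27, limma adjusted p = 0.0504), Ndn (1.0) and Mllt3 (0.85), for which both LT-HSC arrays lay above both ST-HSC arrays. Hoxb4 (-1.79, limma adjusted p = 0.0525), Gata2 (-1.38) and Erg (-0.98), for which both lay below, did not pass either. Of all tested probe sets 26.9% lay above in this way and 34.2% below.

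Because Esam, Tek, Procr and Cd34 are also made by endothelial cells, and Kit by mast cells, markers of those cells were read beside them. Of 12 tested endothelial genes Stab2 was higher in LT-HSC (3.53, SE 0.32, limma adjusted p = 0.00164), Egfl7 was lower (-1.86, SE 0.38, limma adjusted p = 0.0266) and 10 did not pass. The call of Egfl7 ended with either LT-HSC array left out (highest limma adjusted p = 0.208). The summed intensity of 15 endothelial genes was 891 and 860 on the LT-HSC arrays, against 1382 and 1020 on the ST-HSC arrays, with Cdh5 (VE-cadherin) at 6.70 and 15.5 on the LT-HSC arrays, against 13.8 and 13.7 on the ST-HSC arrays. Of 9 mast cell and basophil genes Ms4a2 was lower in LT-HSC (-2.29), Mcpt8 was higher (1.55) and 7 did not pass, with sums of 286 and 475 on the LT-HSC arrays, against 637 and 806 on the ST-HSC arrays. Both calls ended with either LT-HSC array left out (highest limma adjusted p = 0.221, for Mcpt8). The shares called over all 12832 genes were 7.92% higher in LT-HSC and 6.41% lower. No gene of these lists read 0 on any array, and their part in the values of Tek, Esam and Kit was not tested.

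**Figure D4:**
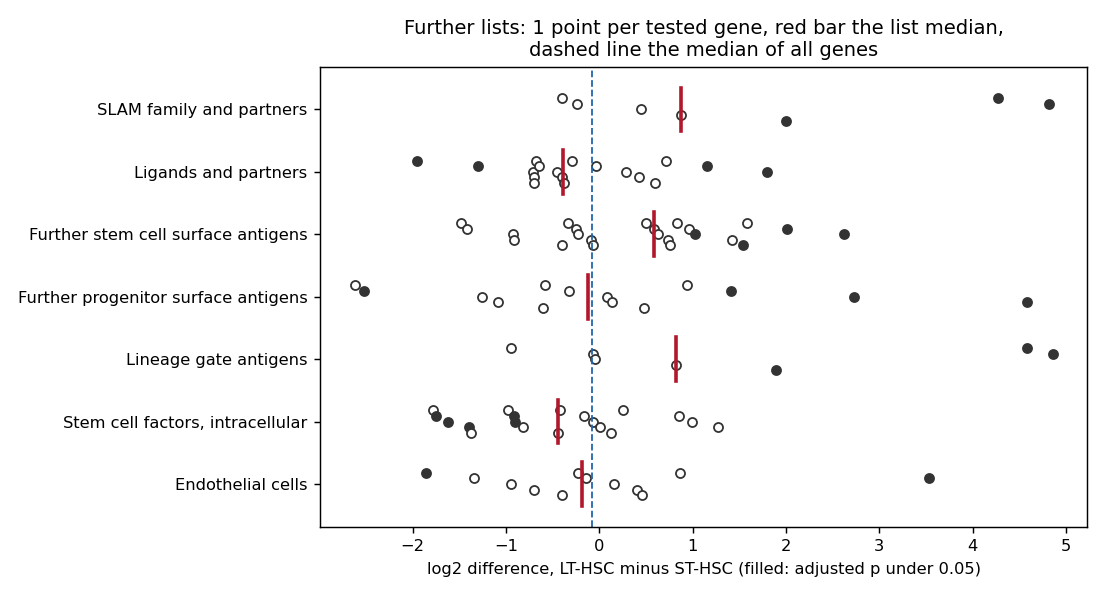
Log2 difference, LT-HSC minus ST-HSC, of each tested gene (brightest probe set) in 7 lists around the gating antigens, without the 9 gating genes. Filled points passed the adjusted p threshold of 0.05, red bars are list medians (0.88 for the SLAM family, -0.44 for the stem cell factors) and the dashed line is the median of all genes at -0.08.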

How the data were processed

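RNA of sorted cells was purified, amplified in 2 rounds and labelled with biotin for Affymetrix arrays, per the labels' protocols. The authors deposited an intensity for every probe set of each array, on a linear scale. The software that summarised probes and any scaling were not given in the sources used here. Of 45101 probe sets 64 controls were left out. Array medians spanned 0.33 on the log2(intensity + 16) scale, above a limit of 0.2, so arrays were quantile normalized. Probe sets above the 40th percentile of the mean were tested with limma 3.58.1 in R 4.3.3 (lmFit, eBayes with trend; 2 residual and 4.84 prior degrees of freedom). Of the probe sets, 3296 passed and 8209 had an unadjusted p under 0.05. An exact permutation test of 2 against 2 arrays cannot go below 0.33. The number of arrays limits the precision. The procedure was tested on simulated data. A further part of the mice's genotype, shared by both groups, is not reported here.

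Probe sets were named from the supplied platform annotation (34945 with 1 symbol, 932 with several, 9160 unnamed here), and a gene in a list stood by its brightest probe set. All gating probe sets are named. Of each list up to 4 called genes of smallest p were picked, with the 5 nearest to Cd34. These 48 are the named genes counted below, although the text prints only Ms4a1 of the B cell and plasma cell picks. Gfi1b, which is not among the 48, was chosen after its value was seen. So were Cd244a, Tie1, Cdh5 and the stem cell antigens and factors named without a call. The members and lists were chosen with earlier results of these data known. Alternatives were normalization, pseudocount, filter, trend, averaged probe sets and each array left out; the list counts under them were added after seeing the data.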

Additional observations from a re-analysis of the deposited data

How the results depend on the processing

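No paired analysis was possible because the groups share only 1 replicate number. With 1 array left out, 415 to 8774 of 27022 probe sets and 1 to 6 of the 12 gating probe sets passed, against 3296 and 3 over all 4 arrays. The gating count was 1 without LT-HSC replicate 1 or 2 (Cd34 in both cases), 5 with ST-HSC replicate 2 left out and 6 with ST-HSC replicate 3 left out. The lone array left in a group is assumed to vary like the other pair. Of 119 values of the 11 probe sets other than Cd34 under the alternatives, 93 kept direction and side of the threshold, 10 lost a call, 8 gained one and 8 changed sign. The sign changes were in the dim Kit probe set (-0.053 with no normalization between arrays, and -0.0496 to 0.15 with an array left out), in Slamf1 (with an array left out, -0.53 to 0.017 for the brightest probe set, -0.64 to 0.29 for the middle and -0.027 to 0.38 for the dimmest), in Esam (-1.15 to 0.02) and in Procr (-0.21 to 1.29). None of the 8 values of changed sign was called. The call of the bright Kit probe set was lost under 8 of 11 settings, among them centring on the medians (-0.88, adjusted p = 0.129). Cd48 and Flt3 passed with that centring (adjusted p = 0.0197 and 0.041), and with probe sets averaged per gene 4 of 9 genes passed (Flt3 and Cd48 in place of Kit). Of 48 named genes of the further lists and near Cd34, 18 kept their call in all settings, 30 lost it without at least 1 LT-HSC array, and 0 changed sign.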

Other observations

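Marker genes of other blood lineages were read in the same way. Beside the counts of this paragraph stand the shares over all 12832 genes, 6.41% called lower in LT-HSC and 7.92% higher. Of 9 tested genes that mark progenitors of granulocytes and monocytes 4 were lower in LT-HSC and 0 higher (median -2.62): Mpo, Ctsg (cathepsin G, -5.10), Csf3r and Prtn3 (proteinase 3, -2.18). With arrays centred on their medians, or with no normalization, 7 were lower and 0 higher. In those 2 settings 4085 and 3245 of all 27022 tested probe sets passed, against 3296 in the main one. Without ST-HSC replicate 2 the median of these 9 genes was -3.76, and without ST-HSC replicate 3 it was -1.75. Of 8 granulocyte markers 0 passed in limma over all 4 arrays. Their median was -3.78 over all 4 arrays. It was -5.88 when ST-HSC replicate 2 was dropped. Dropping ST-HSC replicate 3 gave -1.22 over the 7 genes then tested, so the size of the difference depended on that array. Each of these fits leaves 1 ST-HSC array, so no call is read from them. Of 8 megakaryocyte and platelet genes Clec1b (2.81) and Vwf were higher in LT-HSC and Gp9 (-1.38) and Gp5 (-1.44), which encode parts of the platelet receptor for von Willebrand factor, were lower. Of 6 erythroid genes Epor, the erythropoietin receptor, was higher (2.15) and Slc25a37 (a mitochondrial iron carrier, -1.81) and Car2 (carbonic anhydrase, -1.31) were lower. Of 6 T and NK cell genes Cd3g, Gzma (granzyme A, 2.33) and Klrd1 (2.39) were higher and Nkg7 (-2.63) was lower. The calls over all 4 arrays, other than those of Mpo and Clec1b, were lost without at least 1 LT-HSC array, with Ctsg at a highest limma adjusted p of 0.0729 and Nkg7 at 0.1.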
